A study of Mus musculus with 24 samples.

Results

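Fst, Fstl3, Akt1 and Irs2 were followed in tibialis anterior muscle of control mice and of mice in which the histone chaperone gene Hira was deleted in muscle fibres. All rows of the array whose annotated symbol was one of these names were taken, which gave 5 rows for 4 genes, out of 26423 rows and 17742 named genes. Fstl3 had 2 rows and each of the others had 1. The 4 genes were chosen by how they differed between control and knockout muscle in these same arrays, so their differences between the groups are given as a description with an interval, and no p is given for them.

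Follistatin, the product of Fst, is a secreted glycoprotein that binds myostatin and the activins and keeps them from their receptors, and the related FSTL3 protein does the same for a narrower set of ligands. Myostatin and activins act through activin receptors and SMAD proteins to restrain the growth of muscle fibres. Insulin and insulin-like growth factors act through receptor kinases and the docking protein IRS2 on phosphoinositide 3-kinase and then on AKT1, a kinase that raises protein synthesis through mTORC1 and keeps FOXO transcription factors out of the nucleus.

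The control group was Myf6 cre/+; Hira flox/+ and the knockout group Myf6 cre/+; Hira flox/-, with 4 animals of 6 months in each, on a mixed C57BL6/J and 129S1/SvImJ background. Both groups carried the Cre recombinase, which is expressed from the muscle gene Myf6, so control fibres kept 1 intact Hira copy, while the knockout animals carried a null copy in every cell. The 24 arrays were 3 hybridisations of total RNA from each animal. Animals were given numbers from 1 to 4 by the order of their accessions, and a number pairs nothing across groups. Animals 1 and 2 of each group bear lower identification numbers in the labels than animals 3 and 4.

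The values were probe intensities on a linear scale with the same median of 626 on every array. The 5th percentile of an array ran from -2.35 to 125, and 125 is used here as the level at or under which a gene is called dim. The Hira row did not separate the groups. Its log2 level was 8.85, 9.11, 8.92 and 8.99 in control animals 1 to 4 and 8.63, 9.31, 8.52 and 8.83 in knockout animals 1 to 4 (difference -0.15; exact two-sided permutation p = 0.457, where 0.0286 is the smallest possible). The sources used here do not say whether this probe lies in the deleted part, so it does not check the genotypes. All 8 measured markers of fast muscle fibres were bright in both groups, and their summed level was 2535970 to 3123110 in control animals and 2057480 to 2879510 in knockout animals. By limma 0 of the 8 passed an adjusted p of 0.05 and 0 had an unadjusted p under 0.05. All 8 had a negative difference, with a list median of -0.19 (log2), beside -0.07 over all genes. In whole muscle, fewer cells of a type and less RNA per cell cannot be told apart.

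The bases that precede the start sites are shown first, since these are where FOXO, SMAD and other factors of the pathways would be looked for. RefSeq's promoter table (GRCm38.p6) held windows for 3 of the 4 genes, and the 250 bases before the start are printed 5′ to 3′ on the gene's own strand, with matches to the motifs below, other than the 5 letters GTCTG, in capitals. Fst was not matched in that table. The windows lie at chr10:79777024-79777273 (plus strand) for Fstl3, chr12:112674885-112675134 (minus strand) for the upstream one of 2 starts of Akt1, and chr8:11008930-11009179 (minus strand) for Irs2.
Fstl3: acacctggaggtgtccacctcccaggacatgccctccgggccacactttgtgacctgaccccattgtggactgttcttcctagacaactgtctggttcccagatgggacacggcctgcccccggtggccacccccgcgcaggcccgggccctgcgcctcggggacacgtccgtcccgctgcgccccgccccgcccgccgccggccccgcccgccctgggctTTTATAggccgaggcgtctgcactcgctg
Akt1: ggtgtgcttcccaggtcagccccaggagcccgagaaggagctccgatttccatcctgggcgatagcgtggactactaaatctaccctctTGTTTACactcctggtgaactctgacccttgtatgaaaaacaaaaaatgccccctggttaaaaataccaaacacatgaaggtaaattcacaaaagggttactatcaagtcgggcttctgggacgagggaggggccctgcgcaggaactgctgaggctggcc
Irs2: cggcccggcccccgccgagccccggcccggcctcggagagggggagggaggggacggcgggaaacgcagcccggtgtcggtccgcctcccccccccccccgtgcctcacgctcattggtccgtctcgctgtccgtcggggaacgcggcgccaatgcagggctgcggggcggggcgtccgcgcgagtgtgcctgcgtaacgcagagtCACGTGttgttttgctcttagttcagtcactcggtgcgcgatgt

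Each motif was searched as its letters on both strands. The Akt1 window held a FOXO core, GTAAACA, on the other strand, so that it reads TGTTTAC above, 161 to 155 bases before the start. That core stood in 3.17% of all 32851 windows of 250 bases. The Irs2 window held an E-box, CACGTG, 44 to 39 bases before the start, as did 6.02% of all windows. The Fstl3 window held TATAAA on the other strand, written TTTATA, 29 to 24 bases before its start, as did 12.4% of windows. No window of these genes held the cyclic AMP element TGACGTCA (1.55% of all windows) or the SMAD palindrome GTCTAGAC (0.167%). The short SMAD site GTCTG, found in 42.2% of all windows, occurred in the Fstl3 window and in the second Akt1 window but not in those printed for Akt1 and Irs2. Guanine and cytosine made up 71.2% of the Fstl3 window, 52% of the printed Akt1 window, 78.4% of the second Akt1 window and 72.8% of the Irs2 window, against a median of 52.4% over all windows. A match is a run of letters and not evidence of binding.

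Fst was higher in knockout muscle in every animal. Its mean intensity over 3 hybridisations was 432, 297, 328 and 394 in control animals 1 to 4 and 946, 1298, 739.5 and 664 in knockout animals 1 to 4. The lowest knockout animal thus stood 0.62 above the highest control animal on the log2 scale. On the log2 scale the controls averaged 8.49 ± 0.25 (SD, n = 4 animals) and the knockouts 9.78 ± 0.43, which differ by 1.30 ± 0.21 (SE; 95% interval 0.84 to 1.75), or 2.46-fold. Of the 17742 genes it had the 143rd largest positive difference. Knockout animals 1 and 2 lay above knockout animals 3 and 4, so the difference was 1.63 within the lower-numbered animals of both groups and 0.96 within the higher-numbered ones, and the difference between these values was not tested. Single hybridisations ran from 244 to 448 in control and from 586.5 to 1478 in knockout muscle, so no knockout array fell as low as any control array.

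Fstl3 went the other way. Its brighter row stood at 960, 1046, 993 and 1072 in control animals 1 to 4 and at 698, 723, 655 and 809.9 in knockout animals 1 to 4. Its log2 mean was 9.99 ± 0.07 (SD, n = 4) among controls and 9.49 ± 0.13 among knockouts, a difference of -0.50 ± 0.11 (SE; 95% interval -0.74 to -0.25), or 1.41-fold lower. The control animals were closer to one another here than for any other member row, and the groups did not overlap. Both series of animals gave the same size, -0.50 and -0.50.

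The dimmer Fstl3 row had the same direction and a smaller size. It stood at 378, 393, 445 and 419 in control animals and at 359.8, 341, 305 and 345 in knockout animals. The highest knockout animal, number 1, came within 0.07 (log2) of the lowest control animal, also number 1. The difference was -0.28 ± 0.11 (SE, every row fitted as a feature of its own; 95% interval -0.53 to -0.02). It was -0.14 within the lower-numbered and -0.41 within the higher-numbered animals. Its hybridisations overlapped (352 to 462 in control and 286 to 397 in knockout muscle). Averaged over both rows, the Fstl3 difference was -0.39.

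**Figure D1:**
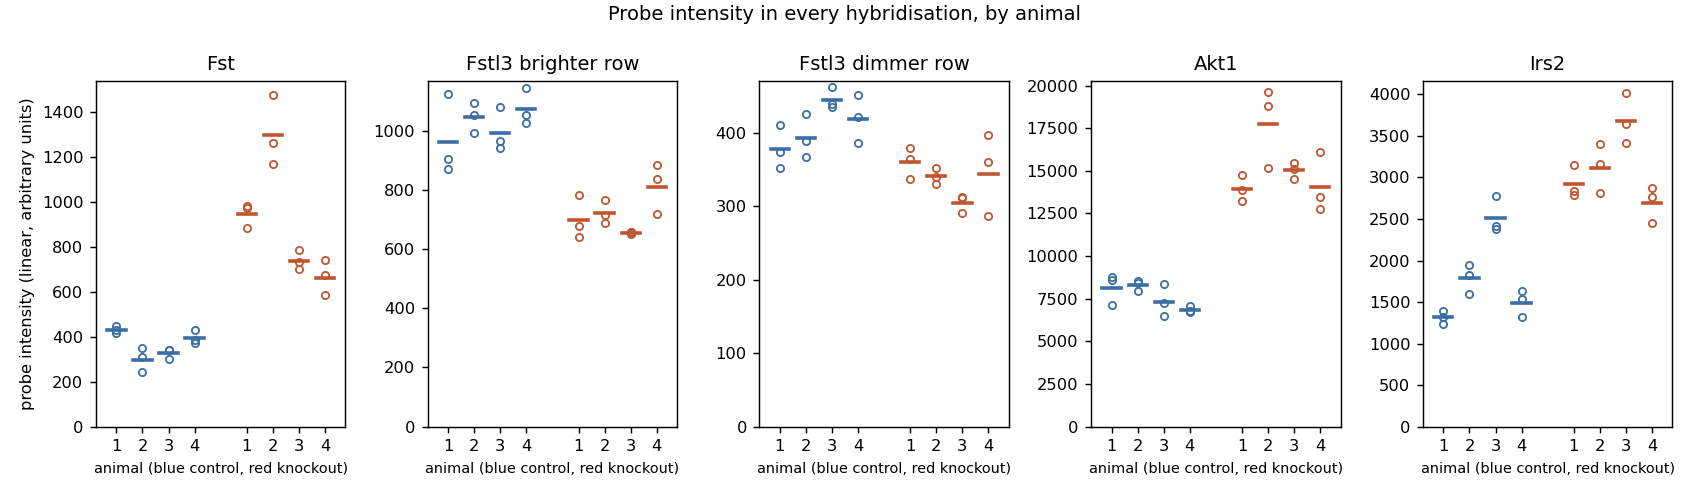
Probe intensity (linear scale, arbitrary units, axes from 0) of the 5 member rows in each of 3 hybridisations (open circles) for control animals 1 to 4 (blue) and knockout animals 1 to 4 (red), with a bar at each animal's mean on the log2 scale. Knockout animals lie above control animals for Fst, Akt1 and Irs2 and below them for both Fstl3 rows, with control animal 3 at 2517 nearest to the knockout animals for Irs2.

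Akt1 was higher in every knockout animal, with the widest gap between the groups of the 5 rows. Its intensity was 8119, 8297, 7328 and 6866 in control animals 1 to 4 and 13939.5, 17745, 15019 and 14057 in knockout animals 1 to 4. The lowest knockout animal lay 0.75 (log2) above the highest control animal. Log2 levels averaged 12.90 ± 0.13 (SD, n = 4) in the control and 13.88 ± 0.16 in the knockout group, a difference of 0.99 ± 0.12 (SE; 95% interval 0.72 to 1.26), or 1.98-fold. The 2 series of animals gave 0.94 and 1.03. The spread between hybridisations of an animal (root mean square SD 0.134) was about as large as that between animals of a group (0.146). Akt1 ranked 257th among positive differences of all genes.

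Irs2 was also higher in knockout muscle, with the smallest gap of the 3 genes that were higher. It stood at 1315, 1787, 2517 and 1489 in control animals 1 to 4 and at 2921, 3115, 3683 and 2687 in knockout animals 1 to 4. Control animal 3 came within 0.09 (log2) of knockout animal 4, while control animal 1 lay lowest. Single hybridisations overlapped, at 1237 to 2772 in control and 2449 to 4022 in knockout muscle, although the animal means did not. In log2 units the control animals averaged 10.75 ± 0.41 (SD, n = 4) and the knockout animals 11.59 ± 0.19, a difference of 0.84 ± 0.19 (SE; 95% interval 0.42 to 1.26), or 1.79-fold. Without control animal 3 the difference was 1.02, and without control animal 1 it was 0.71. Irs2 ranked 360th among positive differences. For Irs2 the spread between animals (0.319) exceeded that between hybridisations (0.125), as it did for Fst (0.349 and 0.144).

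In the limma fit of the whole table, by which the background was counted, all 4 genes lay under an adjusted p of 0.05, 3 higher and 1 lower, as did 9.28% of all genes, 4.28% higher and 5.01% lower. Fstl3 did not pass without control animal 4, without knockout animal 3 or with hybridisation 2 left out. Irs2 did not pass without control animal 1 or 4 or knockout animal 2 or 3. In the lower-numbered animals alone 0 of the 4 genes passed, and in the higher-numbered ones only Fst and Akt1 did. In all 4 the animals of the groups did not overlap, as in 17.5% of all genes. Nothing is read from these counts, since the same contrast chose the genes.

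**Figure D2:**
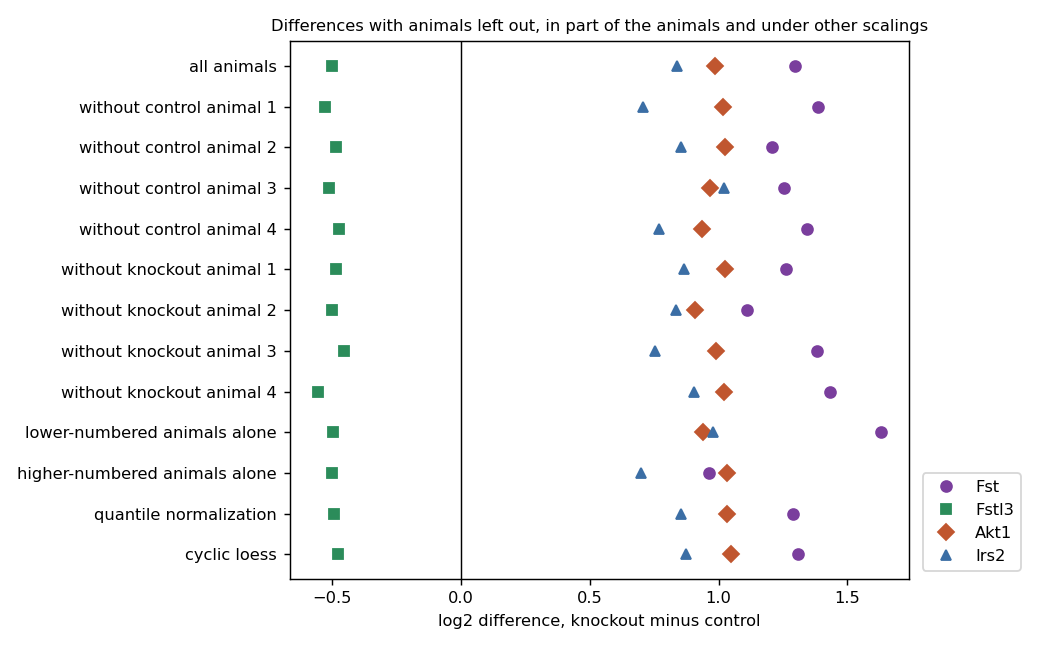
Log2 difference, knockout minus control, of the 4 genes with all animals, with each animal left out, in the lower-numbered or higher-numbered animals alone and under 2 other scalings of the arrays. Every Fst, Akt1 and Irs2 point lies above 0 and every Fstl3 point below 0, and Fst moves most, between 0.96 and 1.63. As the groups did not overlap, leaving out animals could not turn these signs.

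Within groups the members did not vary as one. Deviations from the group means over the 8 animals correlated at 0.46 between Fst and Akt1, 0.0094 between Akt1 and Irs2, -0.30 between Fst and Irs2 and from -0.33 to -0.24 between Fstl3 and the others. With 8 animals from the same arrays these values are only a description. Knockout animal 2 was the highest of its group for Fst and Akt1, knockout animal 3 for Irs2 and knockout animal 4 for the brighter Fstl3 row.

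The genes most like each member over the 8 animals, by Pearson's r of log2 means, are named with r as a description that takes in the difference between the groups. For Fst they were Mroh8 (r = 0.979), Tnik, a kinase (0.979), Sdccag8, a centrosomal protein (0.976), Gca, a calcium-binding protein (0.975), and Enkur, a cilium protein (0.973). For Fstl3 they were Lgals1, the lectin galectin-1 (0.997), Ten1, a telomere protein (0.984), Prdx4, a peroxiredoxin (0.978), Ndufb5 of complex I (0.978) and the protease inhibitor Cst6 (0.974). For Akt1 they were the histone chaperone Nasp (0.996), Ppp1r14bl (0.995), Ppp1r3d, which targets a phosphatase to glycogen (0.993), Lca5l (0.993) and Gga2, a trafficking adaptor (0.992). For Irs2 they were the mitotic kinase Aurkb (0.978), the calcium sensor Vsnl1 (0.963), Shroom1 (0.960), Lce1a1 (0.957) and Cnbd2 (0.953). With group means removed, r over these 20 genes ran from 0.76 for Cst6 to 0.98 for Lgals1. The genes were picked by r over the same 8 animals, so high values here come in part from that choice.

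Of 161 other genes of the pathway, listed by role, 150 were measured, and 9 rose and 10 fell in knockout muscle (limma on 8 animal means, adjusted over all 17742 genes). That is 12.7% of them, beside 9.28% of all genes, and their median log2 difference was -0.04, beside -0.07 over all genes. The groups did not overlap in 35, or 23.3%, beside 17.5% of all genes. Leaving out control animal 1 gave 12 calls and leaving out knockout animal 3 gave 11, and the split was 20 higher and 14 lower under cyclic loess. The other 11 are not analysed here, and Acvr1c, Gsk3a, Igfbp1 and Wfikkn1 were dim in both groups.

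**Figure D3:**
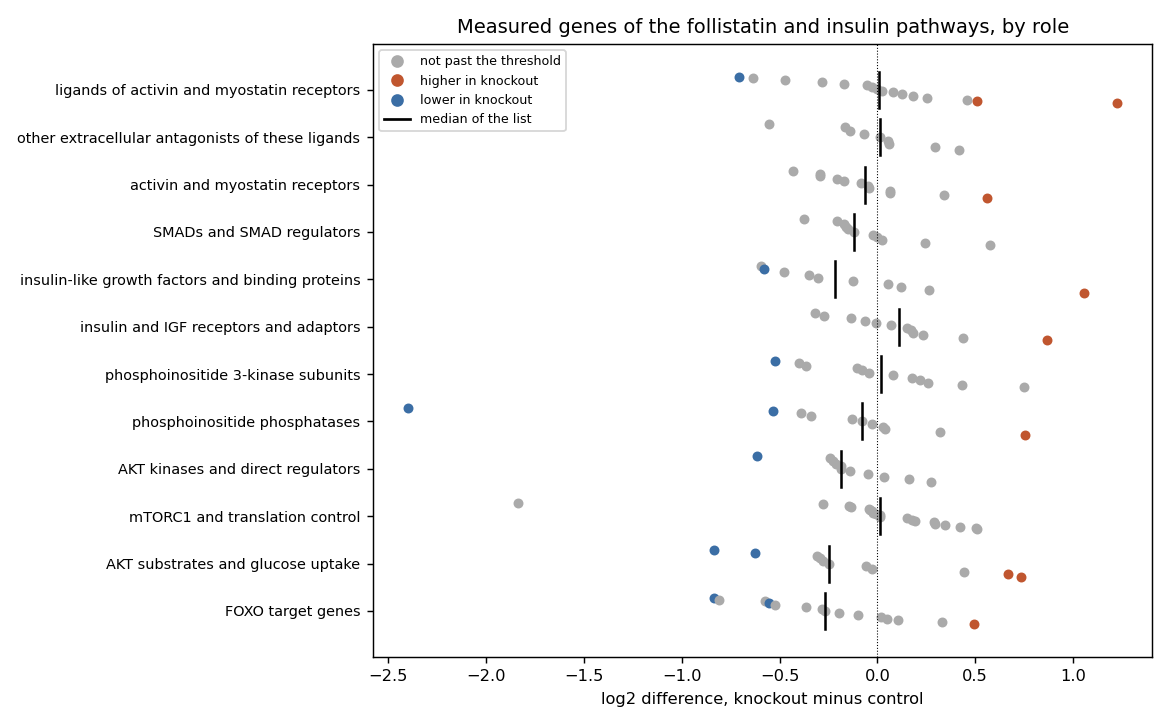
Log2 difference, knockout minus control, of each of 150 measured pathway genes in 12 lists by role, coloured by whether limma's adjusted p passed 0.05, with the list median as a black bar. Called genes are spread over 9 of the lists, and the lowest point is Inpp5j at -2.40.

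Among 16 ligands of the activin and myostatin receptors, 2 rose and 1 fell, with a list median of 0.01. Inha, which encodes the alpha subunit of inhibin, a dimer that opposes activin, stood at 726, 941, 773 and 859 in control animals 1 to 4 and at 1925, 1784, 1933 and 2039 in knockout animals 1 to 4. The knockout animals lay close together and far above the controls, a 2.34-fold rise (log2 difference 1.23 ± 0.12, SE; limma, adjusted p = 0.00015). Gdf11, a close relative of myostatin, rose 1.43-fold (adjusted p = 0.0477), and Bmp6, a bone morphogenetic protein, fell 1.63-fold (adjusted p = 0.0343) with overlapping groups. Myostatin itself, Mstn, which was named after its value was seen, differed by -0.05 (95% interval -0.36 to 0.26).

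The other extracellular antagonists showed no call. Of 9 measured, 0 rose and 0 fell by limma, with a list median of 0.01. The smallest p belonged to Wfikkn2, which binds myostatin and GDF11 (log2 difference -0.55 ± 0.16, SE; adjusted p = 0.0543), and Ltbp3, which holds latent TGF-beta in the matrix (0.42 ± 0.14; adjusted p = 0.0895). At an unadjusted p under 0.05 there were 2 of 9. The share of all genes under that unadjusted cut was not counted, so nothing is read from this count or the like counts below. The Wfikkn2 groups did not overlap, and it passed the threshold in 11 of 26 alternatives. Ltbp3, with overlapping groups, passed in 5.

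Of 12 receptors and co-receptors, 1 rose and 0 fell. Acvr1b, the type I receptor that activin and myostatin share, rose 1.47-fold, from 2028 to 2311 in the control animals to 2790 to 3726 in the knockout animals (adjusted p = 0.0215). The ligand-binding receptor Acvr2b, named after its value was seen, differed by -0.05 (95% interval -0.35 to 0.25). Of 11 SMADs and SMAD regulators 0 passed by limma, and 2 had an unadjusted p under 0.05. The smallest p were those of Smurf1, a ubiquitin ligase for SMADs and their receptors (-0.37 ± 0.11, SE; adjusted p = 0.0561), and Smad7, the inhibitory SMAD (0.58 ± 0.19; adjusted p = 0.0813). Neither had overlapping groups, and Smurf1 passed the threshold in 12 and Smad7 in 5 of 26 alternatives.

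On the insulin side, Igf2 and Igfbp7 were the genes called among 10 growth factors and binding proteins. Igf2, a fetal growth factor, was 6930 to 9363 in control animals and 9402.5 to 26128 in knockout animals, a 2.08-fold rise (adjusted p = 0.026) with a wide knockout spread (SD 0.61, log2), where knockout animal 1 lay next to control animal 2. Igfbp7, a secreted binding protein abundant in vessels, fell by 0.58 on the log2 scale (adjusted p = 0.018). Its second row, which was dim, gave -0.38.

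Of 12 receptors and adaptors, Grb14 rose and no gene fell. Grb14, an adaptor that binds the active insulin receptor and inhibits its kinase, ran from 5829 to 8547 in control animals and from 12226 to 13667 in knockout animals. That was a 1.82-fold rise with a gap between the groups (log2 difference 0.87 ± 0.14, SE; limma, adjusted p = 0.0036). The receptors Insr and Igf1r and the sister docking protein gene Irs1, all named after their values were seen, differed by -0.27 (95% interval -0.64 to 0.09), -0.06 (-0.34 to 0.22) and 0.15 (-0.20 to 0.50).

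Phosphoinositide enzymes held the largest change of the pathway. Inpp5j, a phosphatase that removes the 5-phosphate from the lipid product of phosphoinositide 3-kinase, stood at 3399, 2793, 2294 and 1909 in control animals 1 to 4 and at 622, 403, 368 and 585 in knockout animals 1 to 4. The highest knockout animal, number 1, lay far below the lowest control animal, number 4. It fell 5.27-fold (log2 difference -2.40 ± 0.22, SE; limma, adjusted p = 0.00010). Inpp5a, which acts on soluble inositol phosphates, rose 1.69-fold (adjusted p = 0.0026), and Inpp5f, a lipid phosphatase of endosomes, fell 1.45-fold (adjusted p = 0.0331). Together 1 of 11 measured phosphatases rose and 2 fell. Of 12 phosphoinositide 3-kinase subunits only Pik3c2a, a class II enzyme, was called, 1.44-fold lower (adjusted p = 0.028), with -0.59 in its second row, which was dim.

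Of 11 AKT regulators, 1 fell and 0 rose. Prr5, a subunit of mTORC2, the complex that phosphorylates AKT, fell 1.53-fold, from 637 to 758 in control animals to 419 to 570.0 in knockout animals (adjusted p = 0.0136). In the list of mTORC1 and translation control 0 of 20 passed by limma, and 8 had an unadjusted p under 0.05. That 8 has no share over all genes beside it, and nothing is read from it. The smallest p were those of Sesn3, a stress-induced inhibitor of mTORC1 (0.50 ± 0.15, SE; adjusted p = 0.0612), and the initiation factor Eif4b (0.42 ± 0.13; adjusted p = 0.0692). Both had groups that did not overlap and passed the threshold in 7 of 26 alternatives each, and a second, bright row of Eif4b gave 0.22 ± 0.14.

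Among 11 AKT substrates and glucose uptake genes, 2 rose and 2 fell, with a list median of -0.25. The transcription factor gene Foxo6 rose 1.66-fold (adjusted p = 0.0034) and Bad, whose product promotes cell death unless AKT phosphorylates it, 1.59-fold (adjusted p = 0.0050). Foxo4, another FOXO factor, fell 1.54-fold (adjusted p = 0.0076). Tbc1d4, which holds the glucose transporter GLUT4 inside the cell until AKT phosphorylates it, fell 1.79-fold with overlapping groups (adjusted p = 0.0464). Of 15 genes listed as FOXO targets, 1 rose and 2 fell, with a list median of -0.27. Trim63, a ubiquitin ligase of wasting muscle, fell 1.78-fold, from 71094 to 86554 in control animals to 35504 to 56902 in knockout animals (adjusted p = 0.0084). Sod2, a mitochondrial antioxidant enzyme, fell 1.47-fold (adjusted p = 0.0126; -0.10 in its second, dim row), and the cell cycle inhibitor gene Cdkn1a rose 1.41-fold (adjusted p = 0.0375).

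**Figure D4:**
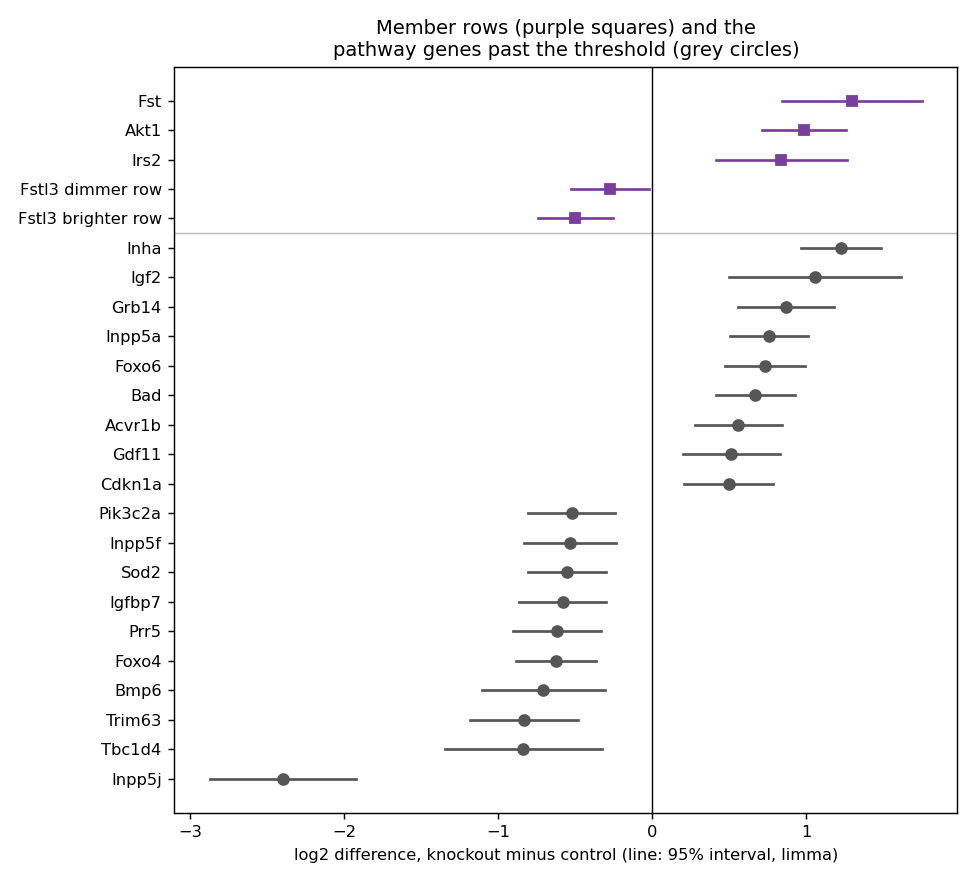
Log2 difference, knockout minus control, with the 95% interval from limma, for the 5 member rows (purple squares, given as a description) and the 19 pathway genes past an adjusted p of 0.05 (grey circles). The Fst interval (0.84 to 1.75) overlaps that of Inha (0.96 to 1.49), and Inpp5j lies apart from all the others at -2.40.

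These calls were not equally firm. Those of Inha, Grb14, Inpp5a, Inpp5j, Prr5, Foxo4, Foxo6, Bad, Trim63 and Sod2 held whichever 1 of the 8 animals was left out, with adjusted p of at most 0.0454. Those of Gdf11, Cdkn1a and Tbc1d4 were lost without any 1 of 7 animals (adjusted p up to 0.122, 0.102 and 0.134), the exceptions being control animal 2 for Gdf11 and Cdkn1a and knockout animal 2 for Tbc1d4. Bmp6 was lost without any but control animal 4 or knockout animal 1 (up to 0.0954), and Pik3c2a without any but control animal 3 or knockout animal 4 (up to 0.0894). Inpp5f was lost without control animal 1 or 2 or knockout animal 1, 3 or 4 (up to 0.0844), Igf2 without control animal 1, 3 or 4 or knockout animal 2 or 3 (up to 0.0712), Acvr1b without control animal 3 or 4 or knockout animal 1 or 4 (up to 0.0603) and Igfbp7 without control animal 1 or knockout animal 3 (up to 0.0598). The Sod2 call was also lost with hybridisation 2 left out (-0.46; adjusted p = 0.0544) and with the mean over its rows (-0.33; adjusted p = 0.104). Leaving out 1 hybridisation also ended the calls of Acvr1b and Pik3c2a in 1 refit each. It ended those of Bmp6, Cdkn1a, Gdf11, Inpp5f and Tbc1d4 in 2 refits each. Gdf11 and Tbc1d4 were lost with every row as a feature, and Bmp6, Cdkn1a and Inpp5f with the median of hybridisations.

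Markers of other cell types moved with the groups in part. Over all genes 9.28% were called, 4.28% higher and 5.01% lower, and nothing is read from a single call in a list. Of 6 adipocyte markers 3 fell (Lep, Cidec and Cfd) and 0 rose, and their summed level was 6315 to 15456 in control animals and 4746 to 5764 in knockout animals. Smooth muscle and pericyte markers fell in 3 of 7 (Tagln, Rgs5 and Acta2), with sums of 38719 to 47792 and 29497 to 33981. Endothelial markers fell in 2 of 10 (Icam2 and Emcn; 83592 to 115287 and 56518 to 87739.8), Schwann cell markers in 2 of 5 (S100b and Mal; 23354 to 32845 and 18190.2 to 23562) and red cell markers in 1 of 2 (Alas2; 2814 to 3916 and 1189 to 2586). Macrophage markers fell in 1 of 8 (Cd163; 14434 to 32547 and 18939 to 43610), while 6 of the 8 had a positive difference and the list median was 0.43, and lymphocyte markers rose in 1 of 6 (Cd3e; 3499.8 to 3993 and 3848 to 4219). Satellite cell markers fell in 1 of 7 (Calcr; 15752 to 18589.6 and 15386 to 17948) and embryonic or regenerating fibre markers in 1 of 5 (Chrng; 15608 to 26528 and 9209.8 to 59018), where 3 of the 5 had a positive difference and the list median was 0.11. The list medians were -0.82 for adipocyte, -0.52 for smooth muscle and pericyte, -0.40 for endothelial, -0.66 for Schwann cell, -0.85 for red cell, 0.10 for lymphocyte, -0.14 for satellite cell, 0.06 for fibroblast and 0.09 for tendon markers. Every measured adipocyte, smooth muscle and pericyte, endothelial, Schwann cell and red cell marker had a negative difference. Positive differences were found in 4 of 6 lymphocyte, 3 of 7 satellite cell, 4 of 7 fibroblast and 5 of 6 tendon markers. None of 7 fibroblast markers was called (154786 to 233220 and 136572 to 256906), nor any of 6 tendon markers (62381 to 101571 and 92909.6 to 130898). A sum of linear levels weighs bright genes most. Most of the fibroblast sum was Dcn (group means 167246 in control and 159727 in knockout animals). Most of the tendon sum was Thbs4 (71983 and 104911), and most of the embryonic or regenerating fibre sum was Actc1 (16370 and 20765). At an unadjusted p under 0.05 limma had 3 of the 7 fibroblast and 1 of the 6 tendon markers, again without a share over all genes to set beside them. Of these markers Cnn1, Ms4a1 and Col1a1 were dim in both groups. The part of these cell types in the differences of Fst, Fstl3, Akt1 and Irs2 was not tested.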

How the data were processed

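Total RNA of tibialis anterior muscle from 4 control and 4 Hira knockout mice was hybridised 3 times per animal. The deposited table gave 1 linear probe intensity per array. All columns had the same median. How the authors scanned, background-corrected and scaled the arrays is not given in the sources here, and the label field and labelling protocol name different dyes. Intensities under the 5th percentile of all values (38.8) were set to it, log2 was taken and the hybridisations of an animal were averaged. Gene names, from an old platform annotation, were updated through RefSeq's gene table (GRCm38.p6): 18213 matched a current symbol, 2126 a synonym and 38 neither. The row of highest mean stood for a gene. The comparison used lmFit and eBayes of limma 3.58.1 (R 4.3.3, Benjamini-Hochberg over 17742 genes, threshold 0.05), tested on simulated data first. The number of arrays and animals limits the precision. Labels do not say how animals were related. The limma p-values set a group difference against the spread between animals, moderated over all genes.

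The members, lists and naming rule were chosen with earlier results of these data known. Named are the members, up to 4 called genes per pathway list by smallest p (2 by smallest p where none passed), up to 3 called markers per cell type, and the 5 genes of highest r with each member, predicted genes left out. Others are said to be named after their values were seen. Alternatives covered scaling, the floor, dim genes, rows of a gene, hybridisations, variance models, animal series and each animal or hybridisation left out.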

Additional observations from a re-analysis of the deposited data

Results flagged for a closer look

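Each group of 4 animals was checked for 1 animal far from the others, by the gap to its neighbour as a share of the range (Dixon's 95% limit for 4 values). Of 60 such groups for the members and named pathway genes, 4 passed, and chance gives about 1 in 20. None was a group of Fst, Fstl3, Akt1 or Irs2. Knockout animal 1 stood above its group for Wfikkn2 (0.909 of the range; 9.69 against 9.25 to 9.29, log2). Control animal 2 stood above its group for Bad (0.834; 11.63 against 11.30 to 11.35) and for Sod2 (0.945; 16.96 against 16.65 to 16.67). Control animal 1 stood above its group for Tbc1d4 (0.845; 11.63 against 11.09 to 11.18).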

How the results depend on the processing

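The differences of Fst, Akt1, Irs2 and Fstl3 kept their sign in all 26 alternatives. Because the animals of the groups did not overlap, leaving out animals or taking 1 series alone could not turn the sign. The higher floor, dim genes left out, every row as a feature, the variance models and the blocks left each difference unchanged. Averaging rows also left Fst, Akt1 and Irs2, with 1 row each, unchanged. The sign was thus fixed beforehand in these refits as well, and their number adds no support. Averaging both Fstl3 rows moved Fstl3 to -0.39 from -0.50. With 1 animal or 1 hybridisation left out, Fst ran from 1.11 to 1.43, Akt1 from 0.91 to 1.04, Irs2 from 0.71 to 1.02 and Fstl3 from -0.56 to -0.45. The pathway count of 19 became 35 under quantile normalization (20 higher, 15 lower), 34 under cyclic loess, 46 with all arrays and the animal as a random block, 42 with the hybridisation number as a replicate block in addition, 1 in the lower-numbered animals alone and 10 in the higher-numbered ones. It ran from 11 to 18 with 1 animal or hybridisation left out. The count over all genes, 1647, became 2570, 3149, 2978, 62 and 508 under quantile normalization, the random block, the replicate block and the 2 series in turn, and ran from 945 to 1693 with 1 animal or hybridisation left out. Deviations from the animal's mean had a mean correlation of 0.059 (from -0.63 to 0.75) between arrays of different animals with the same hybridisation number. Between arrays with different numbers the mean was -0.030. Whether arrays with the same number were handled together is not given in the labels and was not tested. Of 494 refits of the 19 called pathway genes 98 lost the call, of 156 refits of the 6 others 47 gained one, and 0 turned sign. Where the groups of a gene did not overlap, refits that left out animals could not turn it. Refits that changed only the variance model or added a block could not turn any gene. A higher floor changed no direction. Leaving out the 2 arrays with the highest 5th percentile, an alternative added after seeing the data, gave 24 pathway calls. The cause of these shifts was not tested. Dim signal limits the low end of the scale.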

Other observations

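Ddit4, an inhibitor of mTORC1 induced by stress, was singled out after its values were seen, since it had the largest fall of its list without a call. It stood at 3948, 23004, 30495 and 4448 in control animals 1 to 4 and at 2123, 2516, 3319.6 and 4251 in knockout animals 1 to 4. Control animals 2 and 3 were far above the other control animals, and control animals 1 and 4 lay near the knockout range. The log2 difference was -1.84 ± 0.60 (SE; limma, adjusted p = 0.0818), and the control SD was 1.55.

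Ddit4 also had the highest correlation with Irs2 among 146 pathway genes above the dim level once group means were removed (r = 0.77 over 8 animals, a description). Control animals 2 and 3, the high ones for Ddit4, were also the highest controls for Irs2 (1787 and 2517). These levels entered that same r, so they add nothing to it. The highest or lowest of 146 values is extreme in part because it was picked. The group difference ran opposite ways in these genes, with Irs2 higher and Ddit4 not called in knockout muscle. By the same measure the pathway gene closest to Fst was the catalase gene Cat (0.95), that closest to Fstl3 was Pik3c2a (0.76) and that closest to Akt1 was Eif4b (0.90). The most opposite were Chrd for Fst (-0.87), Phlpp2 for Fstl3 (-0.82), Inhbc for Akt1 (-0.90) and Tbc1d7 for Irs2 (-0.87).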
